A study of Mus musculus with 36 samples.

Results

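A set of 10 genes of the skeletal muscle sarcomere, the contractile unit of striated muscle, was followed in ligated mouse carotid arteries. The genes were the adult fast myosin heavy chains Myh1, Myh2 and Myh4, the slow heavy chain Myh7 with the slow troponin T Tnnt1, the embryonic heavy chain Myh3 and the perinatal heavy chain Myh8, the fetal sarcomere genes Actc1 and Myl4, and skeletal actin, Acta1. They were chosen by symbol from a table of 49568 gene symbols, where all 10 were present. All 10 also passed the low-count filter that kept 18628 symbols for testing. The mice belonged to the strains 129X1/SvJ, called 129X1 here, and C57BL/6J, called B6.

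Every mouse had its left carotid artery ligated, and the ligated vessel was taken 14 days later. Treatment was vehicle at 2 mL/kg/day, the angiotensin receptor blocker valsartan (Val) at 27 mg/kg/day, or sacubitril/valsartan (Sac/val) at 60 mg/kg/day, in which sacubitril adds inhibition of the peptidase neprilysin. The prophylactic schedule (P) ran for 16 days from 2 days ahead of the ligation, and the therapeutic schedule (T) ran for 7 days from day 7. Crossing strain, treatment and schedule gave 12 groups of 3 mice and 36 libraries, all from ligated vessels, and vessels without ligation were not analysed here. The age and sex of the mice are not given in the labels, and replicate numbers follow the order of deposit only.

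An adult muscle fibre is typed by its myosin heavy chain, the motor of the thick filament: Myh7 in slow fibres, and Myh2, Myh1 and Myh4 in fibres that contract ever faster. Muscle under construction in the embryo, and muscle rebuilt after injury, first makes Myh3 and Myh8 together with Actc1 and Myl4, and later replaces them with the adult chains and Acta1. Myod1 and Myog, transcription factors of the myogenic lineage, are active while new fibres form. The carotid wall itself is built of smooth muscle, which uses other actin and myosin genes, and small strap muscles of the neck lie beside the vessel.

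Values are in CPM, the counts of a library scaled to a total of 1 M, and totals before scaling ran from 18.96 M to 28.97 M counts (median 22.78 M). Smooth muscle genes, which mark the labelled tissue, were found throughout: their list of 10 genes summed to between 800 and 4750 CPM. That sum is not wall alone, as its genes Des and Synpo2 were highest in 129X1 Sac/val T replicate 3 (1530 and 227 CPM). The smooth muscle actin Acta2 ran from 48.7 to 1550 CPM and the smooth muscle myosin Myh11 from 37.1 to 655 CPM. Both were lowest in 129X1 Val P replicate 3. Skeletal muscle transcripts ranged far more widely. In 129X1 vehicle P replicate 2 Acta1 was at 2.22 CPM and the 6 heavy chains together at 3.14 CPM, while in 129X1 Sac/val T replicate 3 they were at 9190 and 11800 CPM. Transcripts of other tissues near the vessel also varied between libraries of a group, and 16 of the 36 libraries had 10 CPM or more of Rag1, which young T and B cells need to build their receptors. In bulk RNA, fewer muscle cells in a library and less RNA per muscle cell cannot be told apart.

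A few libraries stood apart for genes of forming muscle. In 129X1 Sac/val P replicate 1 Myog was at 91.9 CPM and Myod1 at 46.1 CPM, against medians of 0.652 and 1.22 CPM over all libraries. This library held the highest value for 13 of the 18 measured genes of a list of regeneration and embryonic muscle genes that excludes the 10 described here. In 129X1 Val P replicate 1 Myog was at 29.0 CPM, the second highest value. The strain calls below are therefore also given without these 2 libraries, an alternative chosen after seeing the data.

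Myh3, Myh2, Myh1, Myh4 and Myh8 lie in this order in one cluster on the plus strand of mouse chromosome 11 (GRCm38, 1-based). Myh3 spans chr11:67078300-67102291, Myh2 chr11:67171027-67197517, Myh1 chr11:67200052-67224575, Myh4 chr11:67238029-67260446 and Myh8 chr11:67277124-67308634. Myl4 is farther along the same chromosome at chr11:104550663-104595753. On the minus strand of their chromosomes are Myh7 (chr14:54970684-54994626), Acta1 (chr8:123891769-123894751), Actc1 (chr2:114047282-114053548) and Tnnt1 (chr7:4504570-4516382). All 10 are protein-coding in GENCODE M21. The heavy chains share stretches of sequence, so some reads could fit more than 1 of them. Of the 50-base windows along the longest transcript, 26.9% of those in Myh2, 26.7% in Myh1, 22.2% in Myh7, 21.4% in Myh8, 18.9% in Myh4 and 4.81% in Myh3 also occur in another gene. For Myh1 the gene most shared was Myh2, and for Myh7 it was the cardiac chain Myh6. Genes on the opposite strand overlap Myh1, Myh2, Myh7, Myl4, Acta1 and Actc1, and no source used here says whether reads were counted by strand, so antisense reads cannot be separated from these 6 genes with certainty.

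The start regions of 3 of the clustered chains are shown because Myh3 and Myh8 tended to be high in the libraries that were high in Myog, while Myh4 followed mature muscle. Each sequence is the 250 bases before the gene start in RefSeq (GRCm38.p6, plus strand, 5′ to 3′), with capitals marking CANNTG, the E-box core that Myod1 and Myog can bind.
Myh3: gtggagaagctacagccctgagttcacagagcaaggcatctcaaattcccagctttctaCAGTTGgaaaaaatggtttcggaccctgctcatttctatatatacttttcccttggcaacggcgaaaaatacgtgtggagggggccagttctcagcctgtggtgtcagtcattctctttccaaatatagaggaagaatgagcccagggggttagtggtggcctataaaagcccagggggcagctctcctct
Myh8: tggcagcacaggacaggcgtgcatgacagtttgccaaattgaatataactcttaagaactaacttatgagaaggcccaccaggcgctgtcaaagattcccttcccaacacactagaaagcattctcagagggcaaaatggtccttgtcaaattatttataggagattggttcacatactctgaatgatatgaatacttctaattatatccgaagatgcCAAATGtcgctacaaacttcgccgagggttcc
Myh4: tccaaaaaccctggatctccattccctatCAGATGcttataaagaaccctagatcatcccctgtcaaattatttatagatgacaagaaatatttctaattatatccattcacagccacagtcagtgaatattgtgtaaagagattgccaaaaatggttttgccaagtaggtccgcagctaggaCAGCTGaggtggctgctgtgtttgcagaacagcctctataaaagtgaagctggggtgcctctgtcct
These windows are chr11:67078050-67078299 for Myh3, chr11:67276874-67277123 for Myh8 and chr11:67237562-67237811 for Myh4. Counted from the start of the match to the gene start, the core stood 191 bases upstream in Myh3, 32 bases upstream in Myh8, and 221 and 67 bases upstream in Myh4. CANNTG reads the same on both strands. It is common: 66.2% of 32851 RefSeq windows of this length held at least 1 match and 31.8% held at least 2, so the matches are a description of these sequences only.

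Skeletal actin and the fast heavy chains made up most of the signal. Acta1, the actin of mature skeletal fibres, ran from 2.22 to 9450 CPM (median 1610). Myh4, the chain of the fastest fibres, ran from 1.29 to 5680 CPM (median 857). Myh1, the chain of the next fastest fibres, ran from 1.20 to 7930 CPM (median 346). Myh2, the chain of fast oxidative fibres, ran from 0.432 to 1040 CPM (median 37.7). Per kilobase of transcript, the only scale on which levels of different genes are compared here, the medians were 1110 CPM per kb for Acta1, 142 for Myh4, 56.9 for Myh1 and 6.19 for Myh2. The other 6 genes had medians per kb of 4.31 for Actc1, 4.11 for Myl4, 2.87 for Tnnt1, 0.443 for Myh8, 0.126 for Myh3 and 0.0145 for Myh7.

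Mice of the same group differed widely. The median ratio of the highest to the lowest library of a group was 78.0 for Myh4, 73.8 for Myh2, 43.0 for Acta1 and 37.3 for Myh1, and it was 2.09 for Myl4. The 12 groups accounted for between 19.4% (Myh4) and 54.2% (Myh8) of the variance of log2 CPM, so for 9 of the 10 genes most of the variance lay between mice of the same group. Strain alone accounted for 0.0626% of it for Myh4, 0.566% for Acta1, 17.5% for Actc1 and 18.7% for Tnnt1, and treatment for at most 10.6% (Myh8). Means of small groups also differ by chance, so these percentages include that part and do not measure effects of the design.

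**Figure D1:**
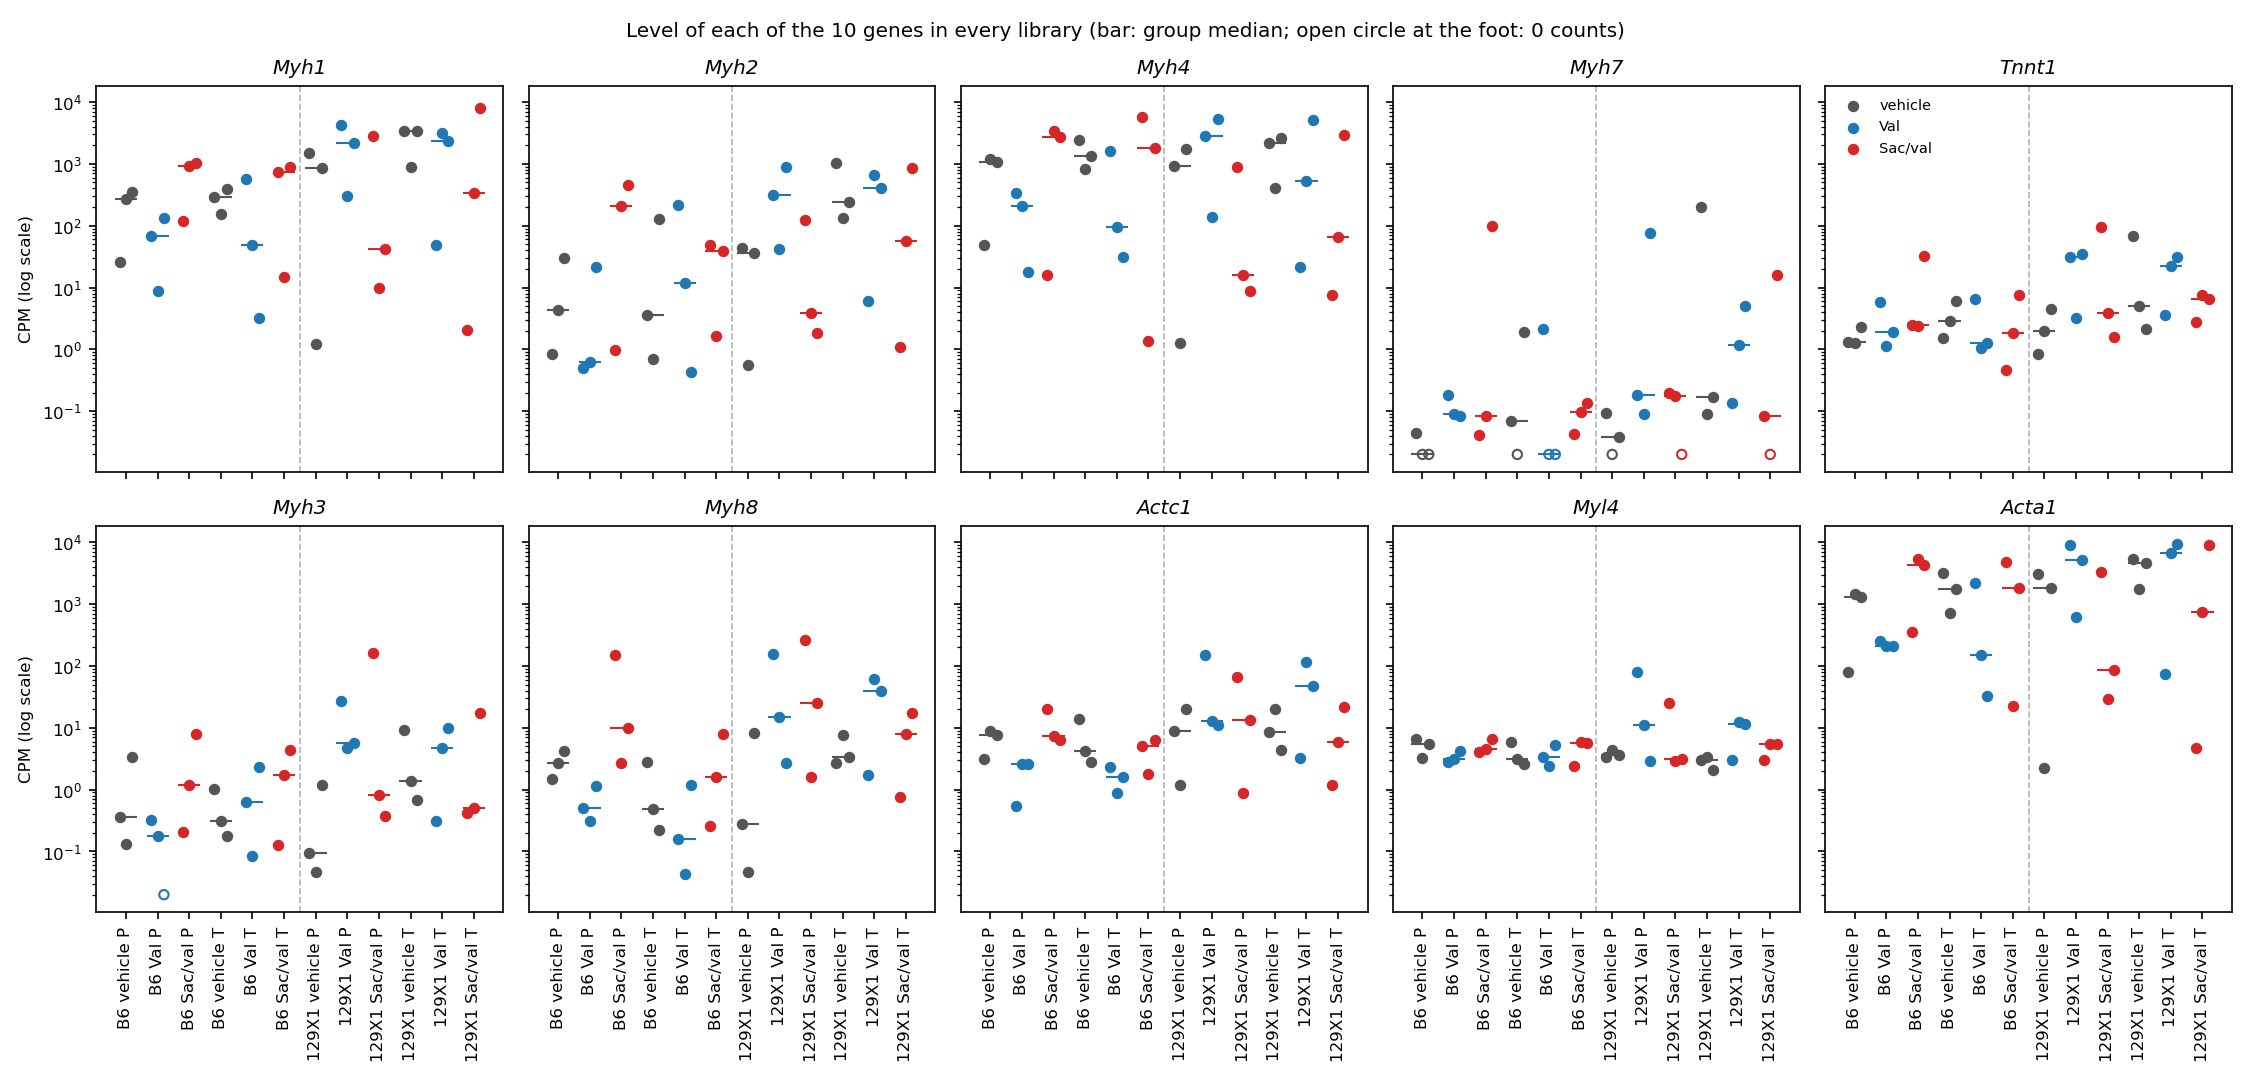
Each panel plots 1 gene in CPM on a log axis by group (P, prophylactic; T, therapeutic), with 3 points per group, a short bar at the group median and open circles at the foot for 0 counts; the dashed line divides B6 from 129X1. Acta1 spans 2.22 to 9450 CPM, Myl4 only 2.09 to 80.2 CPM, and Myh7 reached 10 CPM in 4 libraries.

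The make-up of the heavy chains differed in the medians of the strains. After scaling by length, Myh4 held a median of 72.9% of the 6 heavy chains in the 18 B6 libraries (5.75% to 95.4%) and 34.8% in the 18 of 129X1 (11.3% to 66.2%). Myh1 held a median of 22.1% in B6 (4.02% to 76.7%) and 54.8% in 129X1 (17.1% to 72.1%), and Myh2 held 1.28% and 8.04%. Myh4 was the largest of the 6 in 15 B6 and 6 129X1 libraries, Myh1 in 2 B6 and 12 129X1 libraries, and Myh8 in 1 B6 library. The ranges of the strains overlapped for each chain. These shares describe the libraries and carry no test.

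**Figure D2:**
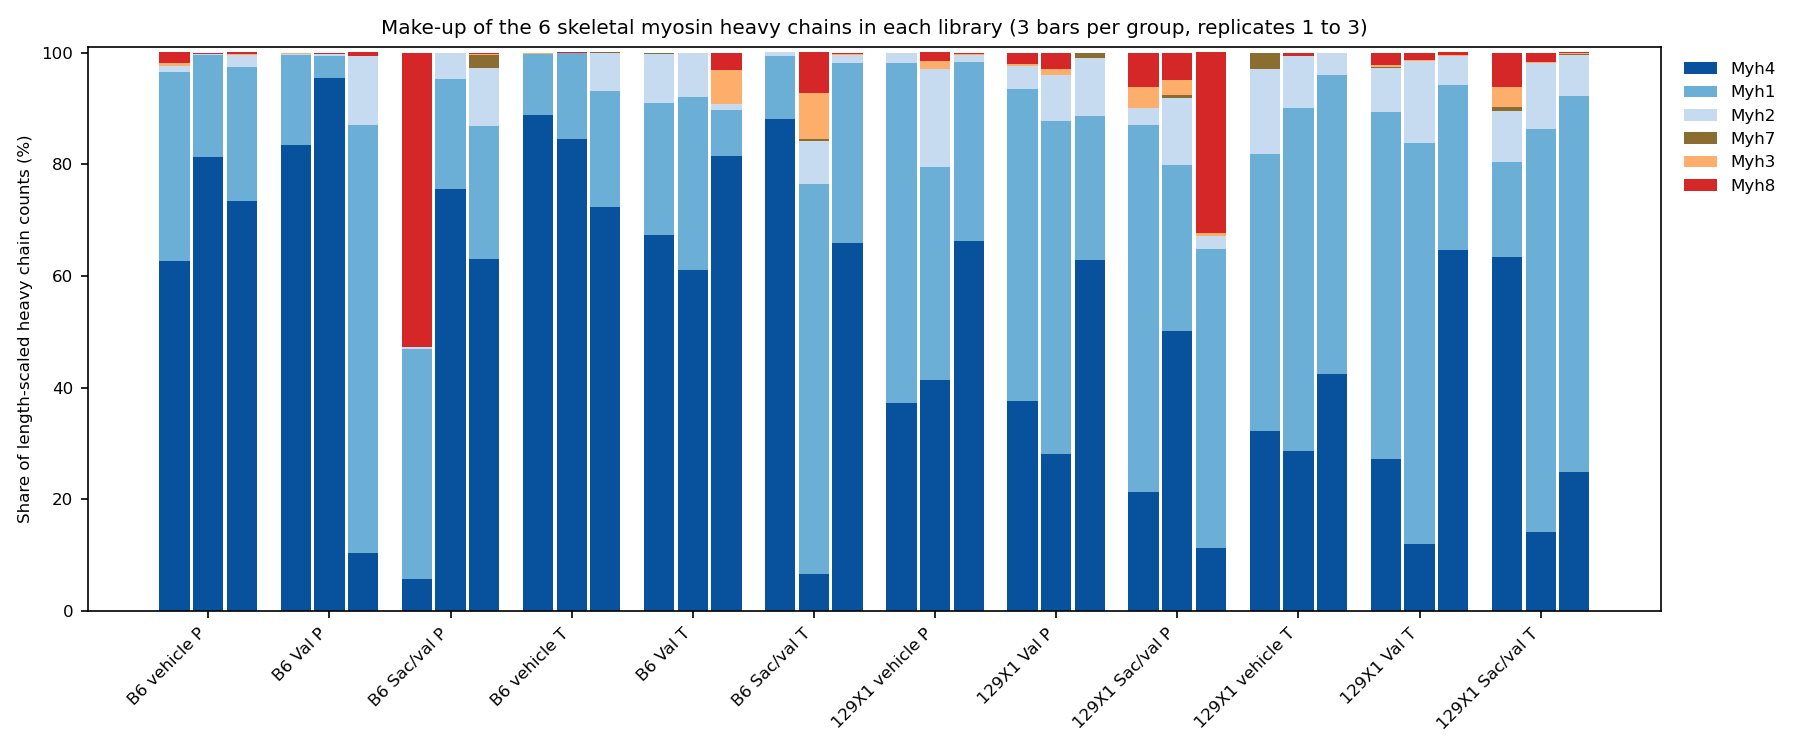
Each bar is 1 library and stacks the shares (%) of Myh4, Myh1, Myh2, Myh7, Myh3 and Myh8 in their length-scaled sum, with 3 bars per group in replicate order. Dark blue (Myh4) is the largest block in 15 of 18 B6 bars, light blue (Myh1) in 12 of 18 bars of 129X1, and red (Myh8) in 1 bar, B6 Sac/val P replicate 1.

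Myh7, the heavy chain of slow fibres, also found in heart muscle, was nearly silent in most libraries and high in a few. It had 0 counts in 8 libraries, where a count of 0 allows up to 0.124 to 0.153 CPM (3 counts, counting error only), and its median was 0.0903 CPM. Values at or above 10 CPM were found in 129X1 vehicle T replicate 1 (200 CPM), B6 Sac/val P replicate 3 (99.8 CPM), 129X1 Val P replicate 3 (76.7 CPM) and 129X1 Sac/val T replicate 3 (16.2 CPM). The other libraries of those groups stayed at or below 0.184 CPM, so in each of the 4 groups the high value came from 1 mouse. The 3 highest libraries held 92.9% of all Myh7 CPM.

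Several other slow-fibre genes were high in the 3 libraries highest in Myh7, though not all of them and not only there. Tnnt1, the slow troponin T, was at 67.8 CPM in 129X1 vehicle T replicate 1, 35.3 CPM in 129X1 Val P replicate 3 and 32.8 CPM in B6 Sac/val P replicate 3, but its highest value, 93.9 CPM, was in 129X1 Sac/val P replicate 1, where Myh7 was at 0.197 CPM. Myl2, a light chain shared by slow fibres and the ventricle, was at 65.5, 24.8 and 33.0 CPM in the first 3 libraries, against a median of 0.111 CPM. In 129X1 Sac/val T replicate 3, where Myh7 was at 16.2 CPM, Tnnt1 was at 6.55 and Myl2 at 6.43 CPM. The slow-fibre gene Tnni1 reached 38.9 CPM in 129X1 Val P replicate 1, where Myh7 was at 0.184 CPM. In the first 3 libraries Tnni1 was at 39.2, 13.8 and 26.2 CPM (median 3.72), and the slow-fibre gene Casq2 at 11.0, 5.75 and 11.6 CPM (median 6.21). The summed level of a cardiac list of 10 genes, which holds Myl2 and the Z-disc gene Actn2 of skeletal fibres, was 397, 258 and 193 CPM in the same 3 libraries, within a range of 14.5 to 475 CPM over 129X1 and 12.1 to 193 CPM over B6. Myh6, the cardiac heavy chain that shares sequence with Myh7, was at 35.6, 13 and 0.576 CPM there. The natriuretic peptide Nppa was at most 0.0527 CPM, Nppb at most 0.142 CPM and the atrial light chain Myl7 at most 0.395 CPM in any library. The part of heart transcripts in the Myh7 values was not tested.

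Myh3, the embryonic heavy chain, was low in most mice. In B6 it was at 0.355, 0.132 and 3.43 CPM under vehicle P, 0.318, 0 and 0.180 CPM under Val P, and 0.205, 1.20 and 8.07 CPM under Sac/val P. In the B6 therapeutic groups it was at 1.02, 0.306 and 0.181 CPM under vehicle, 0.633, 0.0851 and 2.29 CPM under Val, and 0.127, 1.73 and 4.42 CPM under Sac/val. No B6 library reached 10 CPM, and the treatment groups of B6 overlapped. In 129X1 it was at 0.0939, 0.0462 and 1.20 CPM under vehicle P, 26.8, 4.68 and 5.66 CPM under Val P, and 160, 0.834 and 0.371 CPM under Sac/val P. In the 129X1 therapeutic groups it was at 9.23, 1.40 and 0.682 CPM under vehicle, 0.316, 4.65 and 10.0 CPM under Val, and 0.416, 0.510 and 17.3 CPM under Sac/val. The highest value lay in 1 Sac/val mouse, and all 3 mice given Val P lay above all 3 given vehicle P in 129X1.

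Myh8, the perinatal heavy chain, reached higher levels and in more mice. In B6 it was at 1.51, 2.72 and 4.28 CPM under vehicle P, 0.5, 0.315 and 1.14 CPM under Val P, and 151, 2.74 and 10.0 CPM under Sac/val P. In the B6 therapeutic groups it was at 2.78, 0.480 and 0.226 CPM under vehicle, 0.158, 0.0425 and 1.21 CPM under Val, and 0.254, 1.58 and 7.91 CPM under Sac/val. In B6 the Val P mice lay below the vehicle P mice, and only Sac/val P held values at or above 10 CPM. In 129X1 it was at 0.282, 0.0462 and 8.35 CPM under vehicle P, 159, 15.2 and 2.68 CPM under Val P, and 261, 1.62 and 25.4 CPM under Sac/val P. In the 129X1 therapeutic groups it was at 2.73, 7.56 and 3.41 CPM under vehicle, 1.72, 60.5 and 39.5 CPM under Val, and 0.749, 8.01 and 17.6 CPM under Sac/val. No vehicle library of either strain exceeded 8.35 CPM, while 4 of 12 Val and 5 of 12 Sac/val libraries were at or above 10 CPM.

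Myh3 and Myh8 were not always high in the same mouse. In B6 Sac/val P replicate 1, Myh8 was at 151 CPM, Myh3 at 0.205 CPM and Myog at 0.411 CPM, and in 129X1 Sac/val P replicate 3 Myh8 was at 25.4 CPM, Myh3 at 0.371 CPM and Myog at 0.165 CPM. These 2 libraries had Myl3, a slow and ventricular light chain, at 29.7 and 8.09 CPM against a median of 0.344 CPM. Other slow-fibre genes were near or below their medians there. Myl2 was at 0.0411 and 0.0413 CPM, Myh7 at 0.0411 and 0 CPM, and Tnnc1 at 1.31 and 1.32 CPM (median 1.51). Tnni1 was at 4.39 and 0.578 CPM (median 3.72). In 129X1 Sac/val P replicate 1, by contrast, Myh3, Myh8, Myog and Chrng, the fetal subunit of the muscle acetylcholine receptor (90.4 CPM), were high together. Of the 50-base windows in Myh8, 11.8% occur in Myh2, the gene most shared, and 21.4% in any other gene. In B6 Sac/val P replicate 1 Myh2 held 0.348% of the heavy chains and Myh1 41.2%. The part of shared reads in the Myh8 value was not tested.

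Relative to the adult chains, the developmental share (Myh3 plus Myh8 as a percentage of the 6 heavy chains, scaled by length) was 0.486% at the median and ran from 0.00583% to 52.7%. It exceeded 5%, a marker line set for description, in 7 libraries: 6 of 12 under Sac/val, 1 of 12 under Val and 0 of 12 under vehicle. The split depended on the line: at or above 1% were 7 of 12 under Sac/val, 5 of 12 under Val and 2 of 12 under vehicle. The 3 libraries of 129X1 Sac/val P had shares of 9.96%, 7.53% and 32.8%, all above the 3 of 129X1 vehicle P at 0.0151%, 2.92% and 0.355%. Between these groups the library values of 9.16% of all genes also did not overlap. The shares of 7.53% and 32.8% rested on 737 and 1887 heavy chain counts. The highest share, 52.7% in B6 Sac/val P replicate 1, was 53.0% of 6939 counts without length scaling (Wilson 95% interval 51.8% to 54.2%, counting error only). The share for 129X1 vehicle P replicate 2 rested on 68 heavy chain counts (2.94% unscaled, interval 0.810% to 10.1%).

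The share was higher in libraries with few heavy chain counts. Those counts are also its denominator, so they and the share are not independent measures. The 8 libraries with under 100 CPM of heavy chain had a median share of 8.34% (2.39% to 32.8%) and held 5 of the 7 libraries above 5%, while the other 28 had a median of 0.261%. By Ckm, a mature muscle gene outside the share, the same 8 were lowest (0.555 to 39.4 CPM, against 69.7 CPM or more). Those 8 libraries were 4 of 12 under Sac/val, 2 of 12 under Val and 2 of 12 under vehicle, so treatment and muscle content were not balanced. The part of muscle content in the treatment pattern was not tested. The 2 others of the 7 had more muscle, B6 Sac/val P replicate 1 (285 CPM of heavy chain) and 129X1 Sac/val P replicate 1 (4200 CPM).

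**Figure D3:**
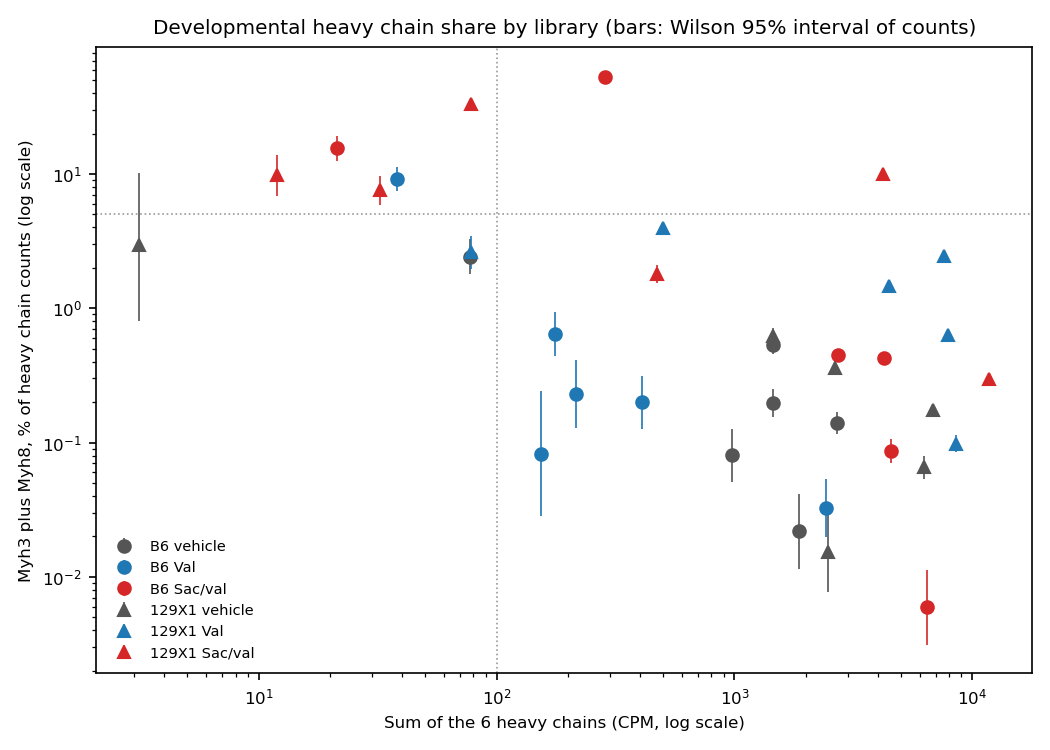
The share of Myh3 plus Myh8 in heavy chain counts (%, log axis, bars for the Wilson 95% interval) is plotted against the summed heavy chains (CPM, log axis) for 36 libraries; circles are B6, triangles 129X1, grey vehicle, blue Val and red Sac/val. Dotted lines mark 5% and 100 CPM: 7 libraries lie above 5%, 6 of them red, and 5 of those 7 lie left of 100 CPM.

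The fetal sarcomere genes were less concentrated in a few mice than the developmental heavy chains, though not evenly spread. The 3 highest libraries held 54.3% of all Actc1 CPM and 44.7% of all Myl4 CPM, against 75.9% for Myh3 and 71.0% for Myh8. Actc1, the actin of heart and fetal muscle, ran from 0.545 to 148 CPM (median 6.35), and its highest values, 148, 118 and 65.4 CPM, were in 129X1 Val P replicate 1, 129X1 Val T replicate 2 and 129X1 Sac/val P replicate 1. In B6 it reached at most 20.2 CPM. Under Val P in B6 it was at 0.545, 2.61 and 2.57 CPM, below the 3.15, 9.00 and 7.66 CPM under vehicle P. Under Val T in B6 it was at 2.32, 0.893 and 1.60 CPM, below the 13.9, 4.23 and 2.80 CPM under vehicle T. In 129X1 the values under Val P, at 148, 12.8 and 11.1 CPM, overlapped the 8.78, 1.20 and 20.2 CPM under vehicle P.

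Myl4, the light chain of the atrium and of fetal muscle, was the steadiest of the 10, from 2.09 to 80.2 CPM (median 3.88). It was at 80.2, 10.9 and 2.90 CPM in 129X1 Val P and at 3.43, 4.35 and 3.69 CPM in 129X1 vehicle P, so 1 Val mouse lay below the vehicle mice. In 129X1 Val T it was at 3.03, 12.3 and 11.6 CPM, against 3.03, 3.40 and 2.09 CPM in vehicle T. Only 5 of the 36 libraries were at or above 10 CPM, and all 5 were 129X1.

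The first comparison asked whether the strains differed, over all treatments, with 18 libraries each and 1 edgeR quasi-likelihood fit of the 12 groups (Benjamini-Hochberg adjusted p below 0.05). Of the 10 genes 7 were higher in 129X1 and none was lower, where 33.8% of all 18628 genes passed, 16.3% higher and 17.5% lower. The same 7 had an unadjusted p below 0.05, as 43.2% of all genes did. The median log2 difference was 2.35 for the 10 genes and -0.02 for all genes tested. The developmental genes were among the 7, and Myh4, Acta1 and Myh7 were not. No gene separated the strains completely, as 2.02% of all genes did.

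Myh8 was at 0.0462 to 261 CPM (median 7.79) in 129X1 and at 0.0425 to 151 CPM (median 1.36) in B6. The log2 difference was 2.83 (SE 0.73, adjusted p = 0.00359, edgeR). Myh3 was at 0.0462 to 160 CPM (median 1.30) in 129X1 and at 0 to 8.07 CPM (median 0.337) in B6. It differed by 2.66 (SE 0.78, adjusted p = 0.00965). The 129X1 libraries extended far above the B6 range for Myh3 and less so for Myh8, and for both the low ends overlapped. Actc1 was at 0.878 to 148 CPM (median 11.9) in 129X1 and 0.545 to 20.2 CPM (median 3.69) in B6, a difference of 2.32 (SE 0.53, adjusted p = 0.00125). Myl4 differed by 0.84 (SE 0.32, adjusted p = 0.0467), though its median was 3.56 CPM in 129X1 and 4.16 CPM in B6: the difference was in the highest libraries.

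Among adult chains, Myh1 was at 1.20 to 7930 CPM (median 1200) in 129X1 and 3.16 to 1020 CPM (median 209) in B6. It differed by 2.78 (SE 0.87, adjusted p = 0.014, edgeR). Myh2 was at 0.555 to 1040 CPM (median 90.1) and 0.432 to 447 CPM (median 8.19), a difference of 2.39 (SE 0.93, adjusted p = 0.0475). Myh4, from the same gene cluster, was at 1.29 to 5320 CPM (median 709) and 1.39 to 5680 CPM (median 945), and its difference of 0.40 had a 95% interval of -1.42 to 2.22 (adjusted p = 0.778). Acta1 gave 1.44 (interval -0.22 to 3.10, adjusted p = 0.176). The slow gene Tnnt1 was at 0.845 to 93.9 CPM (median 4.77) and 0.466 to 32.8 CPM (median 2.12), a difference of 1.96 (SE 0.56, adjusted p = 0.00824), while Myh7 gave 2.62 with an interval of -0.67 to 5.91 (adjusted p = 0.219).

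The strain calls depended on how mature muscle and the high libraries were treated. With the mean log2 level of 12 mature muscle genes as a covariate, Actc1 (1.43, adjusted p = 0.0164) and Tnnt1 (1.44, adjusted p = 0.0245) stayed higher in 129X1, Myh4 was lower (-1.19, adjusted p = 0.0185), and the other 7 did not pass; Acta1 turned to -0.31. Without the 2 libraries highest in Myog, Actc1 (1.65, adjusted p = 0.00956) and Myh8 (1.92, adjusted p = 0.0301) passed, while Myh3 gave 1.38 (adjusted p = 0.133) and Myh1 1.80 (adjusted p = 0.0941). In that fit Myh2 gave 1.77 (adjusted p = 0.151), Tnnt1 1.32 (adjusted p = 0.0539) and Myl4 0.18 (adjusted p = 0.564). With limma voom, which works on log2 CPM, none of the 10 passed, with or without sample weights, although 10108 and 5907 genes passed in those fits. Their smallest adjusted p was 0.0635 (Actc1) with weights and 0.0737 (Tnnt1) without. DESeq2 called the number edgeR did, 7, and 6932 of all genes. How many of all genes passed with the covariate, or without the 2 libraries, is not given here. The counts of the 10 in those fits therefore have no share of all genes beside them.

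**Figure D4:**
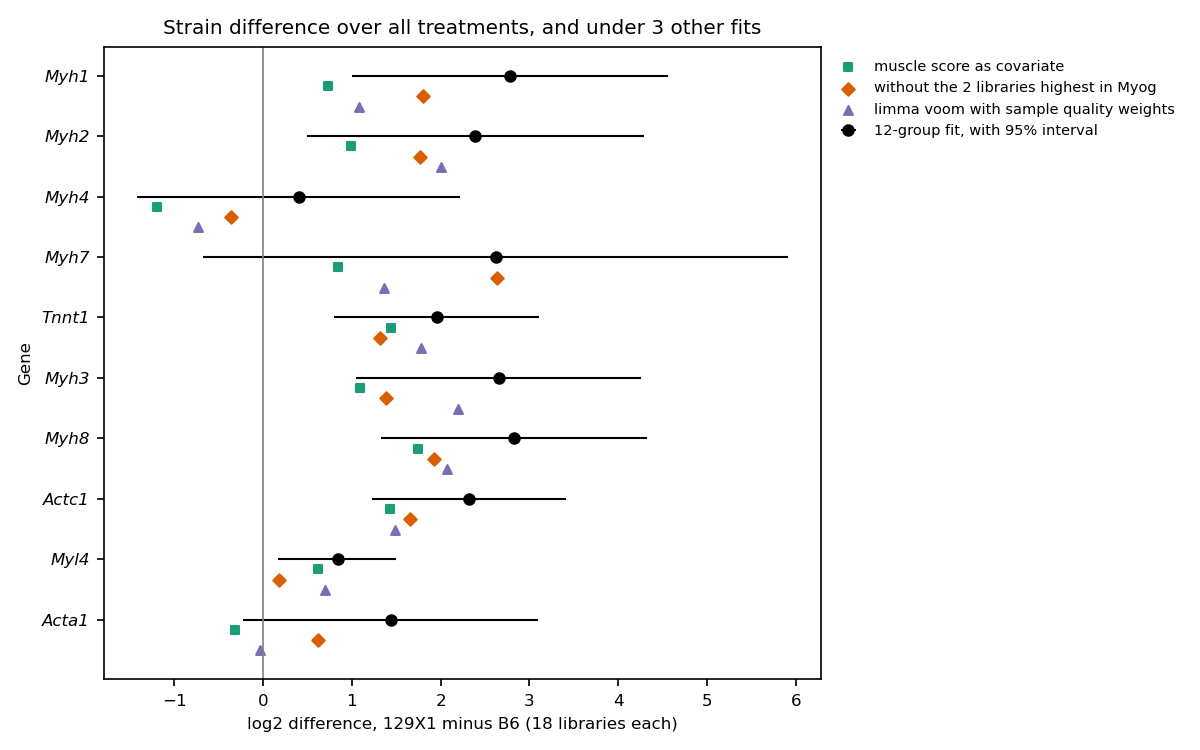
Points give the log2 difference of 129X1 minus B6 for each gene, black with a 95% interval from the 12-group fit, and coloured for 3 other fits. Myh4 lies at 0.40 in black and at -1.19 with the muscle score as covariate, and Actc1 lies between 1.43 and 2.32 in the fits drawn.

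Within vehicle alone, with 6 libraries per strain, 0 of the 10 genes passed in edgeR, 0 had an unadjusted p below 0.05 and 0 passed in DESeq2, where edgeR called 13.5% of all genes (7.02% higher, 6.52% lower) and 28.8% had an unadjusted p below 0.05. Myh3 was at 0.0462 to 9.23 CPM in 129X1 and 0.132 to 3.43 CPM in B6 (difference 0.75, 95% interval -1.97 to 3.47). Myh8 was at 0.0462 to 8.35 and 0.226 to 4.28 CPM (0.93, interval -1.53 to 3.39). The differences of Myh1 (2.66) and Myh2 (2.5) lay close to those over all treatments, with intervals that included 0.

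Of the regeneration and embryonic muscle list, 18 of 20 genes were in the table and tested. Over all treatments 15 of these 18 were higher in 129X1, as 16.3% of all genes were, and their median log2 difference was 2.10. They included, by edgeR, Myl6b, a myosin light chain (0.75, SE 0.14, adjusted p = 0.000124), and the satellite cell factor Myf5 (3.63, SE 0.81, adjusted p = 0.000978). Also among them were Myog (2.96, SE 0.68, adjusted p = 0.00131) and Gm7325, the gene of a fusion peptide (3.16, SE 0.78, adjusted p = 0.00256). The count was 7 with the mature muscle covariate, 7 without the 2 libraries highest in Myog, 3 with voom and sample weights and 1 with voom alone. The 2 voom fits called 10108 and 5907 of all 18628 genes in both directions, so few of the list passed where many genes did. Myf5 had medians of 0.377 CPM in 129X1 and 0.0467 CPM in B6, close to a single count per library in B6. Myl6b ran from 3.81 to 13.6 CPM. It was at 6.61 CPM in 129X1 vehicle P replicate 2, which had 3.14 CPM of heavy chain, so it is not a marker of forming muscle alone.

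Mature muscle lists gave fewer calls. Of 12 adult fast fibre genes 0 passed (median difference 1.09), of 12 general mature muscle genes 1 was higher (Mb, the oxygen store myoglobin, 2.22; list median 1.47), and of 10 slow fibre genes 4 were higher (median 1.49). Those 4 were Myh7b (2.43, SE 0.31), Myoz2 (2.16, SE 0.53), Casq2 (0.88, SE 0.22) and Smtnl1 (2.23, SE 0.74). Myh7b did not track muscle content in every library. In 129X1 vehicle P it was at 1.83, 2.03 and 1.63 CPM, where the summed heavy chains were at 2470, 3.14 and 2650 CPM. Its highest value, 10.0 CPM, was in 129X1 vehicle T replicate 1. The summed general mature muscle list ran from 54.2 to 6690 CPM (median 1330) in B6 and from 39.9 to 12600 CPM (median 2840) in 129X1. Against 16.3% of all genes higher and 17.5% lower, 4 of 6 brown fat genes were higher in 129X1, and 5 of 6 Schwann cell, 3 of 4 tested cartilage and 2 of 6 thyroid genes were lower. The counts of the other lists lay near or below those shares of all genes: 1 higher of 9 thymus genes, 1 higher of 7 tested cardiac genes, 2 higher and 1 lower of 10 smooth muscle genes, 1 lower of 5 endothelial genes and 0 of 6 neuron and glomus cell genes. Their part in the differences of the 10 genes was not tested.

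The second comparison asked what the drugs did, as means over the 4 combinations of strain and schedule. For Sac/val against vehicle, with 12 libraries each, 0 of the 10 genes passed in edgeR and 0 in DESeq2, where edgeR called 0% of all genes and DESeq2 called 10 genes. At an unadjusted p below 0.05 there were 2, Myh8 and Myh3, where 1.57% of all genes had such a p. Myh8 was at 0.254 to 261 CPM (median 7.96) under Sac/val and 0.0462 to 8.35 CPM (median 2.73) under vehicle. The log2 difference was 3.00 (SE 0.88, edgeR adjusted p = 1, DESeq2 adjusted p = 0.171). Myh3 was at 0.127 to 160 CPM (median 1.02) and 0.0462 to 9.23 CPM (median 0.518), a difference of 2.77 (SE 0.94, edgeR adjusted p = 1, DESeq2 adjusted p = 0.478). Without the 2 libraries highest in Myog the differences were 2.33 for Myh8 and 1.17 for Myh3. Without 129X1 Sac/val P replicate 1 alone that of Myh3 was also 1.17, and over all single omissions that of Myh8 stayed between 2.23 and 3.95.

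The mature genes gave smaller values in the same comparison. Myh4 differed by 0.01 (95% interval -2.22 to 2.24), Acta1 by 0.35 (-1.65 to 2.34) and Myh1 by 0.78 (-1.27 to 2.83). The fetal genes Actc1 (0.38) and Myl4 (0.61) did not pass either. Of the 18 regeneration genes 0 passed, with a median difference of 1.40, against 0.32 for the 12 adult fast fibre genes, 0.53 for the 12 general mature muscle genes and 0.01 for all genes.

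For Val against vehicle 0 of the 10 genes passed in edgeR and 0 in DESeq2, where edgeR called 0% of all genes. Only Myl4 had an unadjusted p below 0.05 (0.98, SE 0.40, adjusted p = 0.986), as 2.43% of all genes did. Myh8 differed by 0.98 (95% interval -0.83 to 2.80) and Myh3 by 0.80 (-1.18 to 2.79). For Sac/val against Val, 0 passed by either tool, where edgeR called 0% of all genes. Myh8 (2.02, SE 0.87) and Myh3 (1.97, SE 0.93) were the 2 genes with an unadjusted p below 0.05, as 2.64% of all genes had, and both had an adjusted p of 0.908. The 3 comparisons share libraries, so their values are not independent of each other.

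Within each of the 4 combinations of strain and schedule, with 3 libraries per group, none of the 10 genes passed for either drug in edgeR or DESeq2, where edgeR called 0% of all genes in each. An unadjusted p below 0.05 was held under Sac/val by 3 of the 10 in B6 P (0.757% of all genes), 3 in 129X1 P (2.53%), 0 in B6 T (4.17%) and 0 in 129X1 T (0.542%). Under Val it was held by 0 in B6 P (10.5%), 0 in B6 T (1.35%), 5 in 129X1 P (4.11%) and 1 in 129X1 T (2.51%). In Val P of 129X1, Myl4 differed by 3.02 (SE 0.84), Myh3 by 4.87 (SE 2.07), Myh8 by 4.51 (SE 1.87), Tnnt1 by 3.38 (SE 1.45) and Myh7 by 9.11 (SE 3.49), each with an adjusted p of 0.892. Myh7 rested on 1 mouse at 76.7 CPM, the other 2 being at 0.184 and 0.0900 CPM. In Sac/val P of 129X1, Myh3 differed by 6.88 (SE 2.25) and Myh8 by 5.13 (SE 1.92), and Myh4 by -1.59. Myh3 rested on 1 mouse at 160 CPM there, the other 2 being at 0.834 and 0.371 CPM. The genes named here for Sac/val P are not all of the 3 with an unadjusted p below 0.05 in each strain. In Sac/val P of B6, Myh8 differed by 4.34 (SE 1.86) and Myh3 by 1.42, and all had an adjusted p of 1.

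Library values of a drug group and its vehicle group did not overlap in 6 of the 80 pairings of a gene with a drug, strain and schedule, near the 5.1% of all genes over the same 8 comparisons (2.05% to 9.16% in each). In B6 Val P these were Myh7, higher at 0.182, 0.0901 and 0.0842 CPM against 0.0444, 0 and 0 CPM, and Myh8 and Actc1, lower by the values above; 5.09% of all genes were so separated there. Actc1 was also separated in B6 Val T, where 2.13% of all genes were. Myh3 was separated in 129X1 Val P (4.11% of all genes). Tnnt1 was separated in B6 Sac/val P, at 2.46, 2.37 and 32.8 CPM against 1.33, 1.27 and 2.30 CPM under vehicle (5.21% of all genes). The Myh7 values of that set are between 0 and 4 counts, at the limit of detection.

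Tests of whether a drug difference itself varied with strain or schedule also gave 0 of 10 genes in edgeR and DESeq2, where edgeR called 0% of all genes in each of the 4. For Val by strain, 3 genes had an unadjusted p below 0.05, as 5.15% of all genes did. In B6, Actc1 differed by -1.84 on the P and -2.24 on the T schedule, and in 129X1 by 2.57 and 2.36. The difference between strains was 4.51 (SE 1.30, adjusted p = 0.633, edgeR). That of Myh8 was 5.49 (SE 1.81) and that of Myl4 2.73 (SE 0.80), with the same adjusted p. For Sac/val by schedule, Tnnt1 gave -4.47 (SE 1.39, adjusted p = 1): it differed by 3.03 in B6 and 3.75 in 129X1 on the P schedule, and by 0.04 and -2.21 on the T schedule. In each group behind 3.03, 3.75 and -2.21 a single mouse was far above the others. Tnnt1 was at 2.46, 2.37 and 32.8 CPM in B6 Sac/val P and 93.9, 3.82 and 1.57 CPM in 129X1 Sac/val P. In 129X1 vehicle T it was at 67.8, 5.03 and 2.17 CPM.

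Therapeutic against prophylactic vehicle, with 6 libraries each, gave 0 of 10 genes in edgeR and 0 in DESeq2, where edgeR called 0% of all genes. Myh7 and Tnnt1 had an unadjusted p below 0.05, as 1.59% of all genes did. Myh7 was at 0.0703, 0 and 1.94 CPM in B6 vehicle T and 200, 0.0906 and 0.17 CPM in 129X1 vehicle T, and at most 0.0939 CPM under vehicle P. Its fitted difference was 7.74 (SE 2.55, adjusted p = 1) and 3.18 without 129X1 vehicle T replicate 1, the library at 200 CPM. Tnnt1 differed by 2.30 (SE 0.99, adjusted p = 1).

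Across the 36 libraries, the 10 genes followed mature muscle to different degrees. With the mean log2 level of 12 general mature muscle genes, Spearman's rho was 0.99 for Acta1 and 0.95, 0.91 and 0.87 for Myh1, Myh4 and Myh2 (Pearson's r 0.99, 0.96, 0.93 and 0.86), each with the smallest permutation p that 100000 resamples can give, 1e-05 (adjusted p = 7.5e-05 over 30 relations). For Actc1 rho was 0.68 (r 0.69, adjusted p = 0.00036 for rho), for Myh7 0.62, for Myh3 0.56 and for Tnnt1 0.55. Myh8 gave rho 0.45 and r 0.41 (permutation p 0.00659 and 0.0129, adjusted p = 0.018 and 0.0388), and r was 0.33 without the 2 libraries farthest from the median of the score. Within strains r for Myh8 was 0.09 in B6 and 0.58 in 129X1, and for Myh3 0.22 and 0.69, so the relation of both developmental chains with mature muscle was weak in B6. For Acta1 r was 0.99 in both strains.

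Myl4 followed mature muscle least (rho 0.27 and r 0.32, permutation p = 0.108 and 0.0505) and the smooth muscle score more (rho 0.52 and r 0.49, permutation p = 0.00115 and 0.00317, adjusted p = 0.00383 and 0.0106). That relation held within B6 (r 0.56) and within 129X1 (r 0.54), and without the 2 libraries farthest from the median (r 0.49). With the thymus score its rho was -0.49 (adjusted p = 0.0081) and r was -0.29 (adjusted p = 0.167). The other 9 genes did not pass with smooth muscle or thymus. In all, 11 of the 30 relations passed by rho after adjustment.

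The genes whose levels ranked most like each of the 10 over the 36 libraries, of 12516 genes at or above a mean of 5 CPM, are given with rho as a description. Acta1 was closest to Ckm, the creatine kinase of muscle (rho 1.00), and Myot (0.99). Myh4 was closest to the fast-fibre genes Mybpc2 (0.97), Pvalb and Actn3 (both 0.96), and Myh1 to the sarcomere assembly genes Lmod2 and Nrap (both 0.97). Myh2 was closest to Actn2 (0.94) and myoglobin, Mb (0.93). Myh3 was closest to Myog (0.80), then to Sln, an inhibitor of the calcium pump, and Chrna1, an acetylcholine receptor subunit (both 0.69). Myh8 was closest to Sln (0.84), Mybph (0.83) and Myog (0.79), Actc1 to Sln and Ctxn3 (both 0.84) and Myl4 to Ankrd1 (0.74). The search left out the 10 genes themselves and every gene under a mean of 5 CPM, among them slow-fibre genes such as Myh7b. Within it Tnnt1 (0.72 with Aen) and Myh7 (0.71 with Prob1) had no gene of the slow fibre list among their closest 3. Because of those limits this does not show a lack of likeness to slow-fibre genes. Myh7 and Tnnt1 had a rho of 0.72 with each other.

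**Figure D5:**
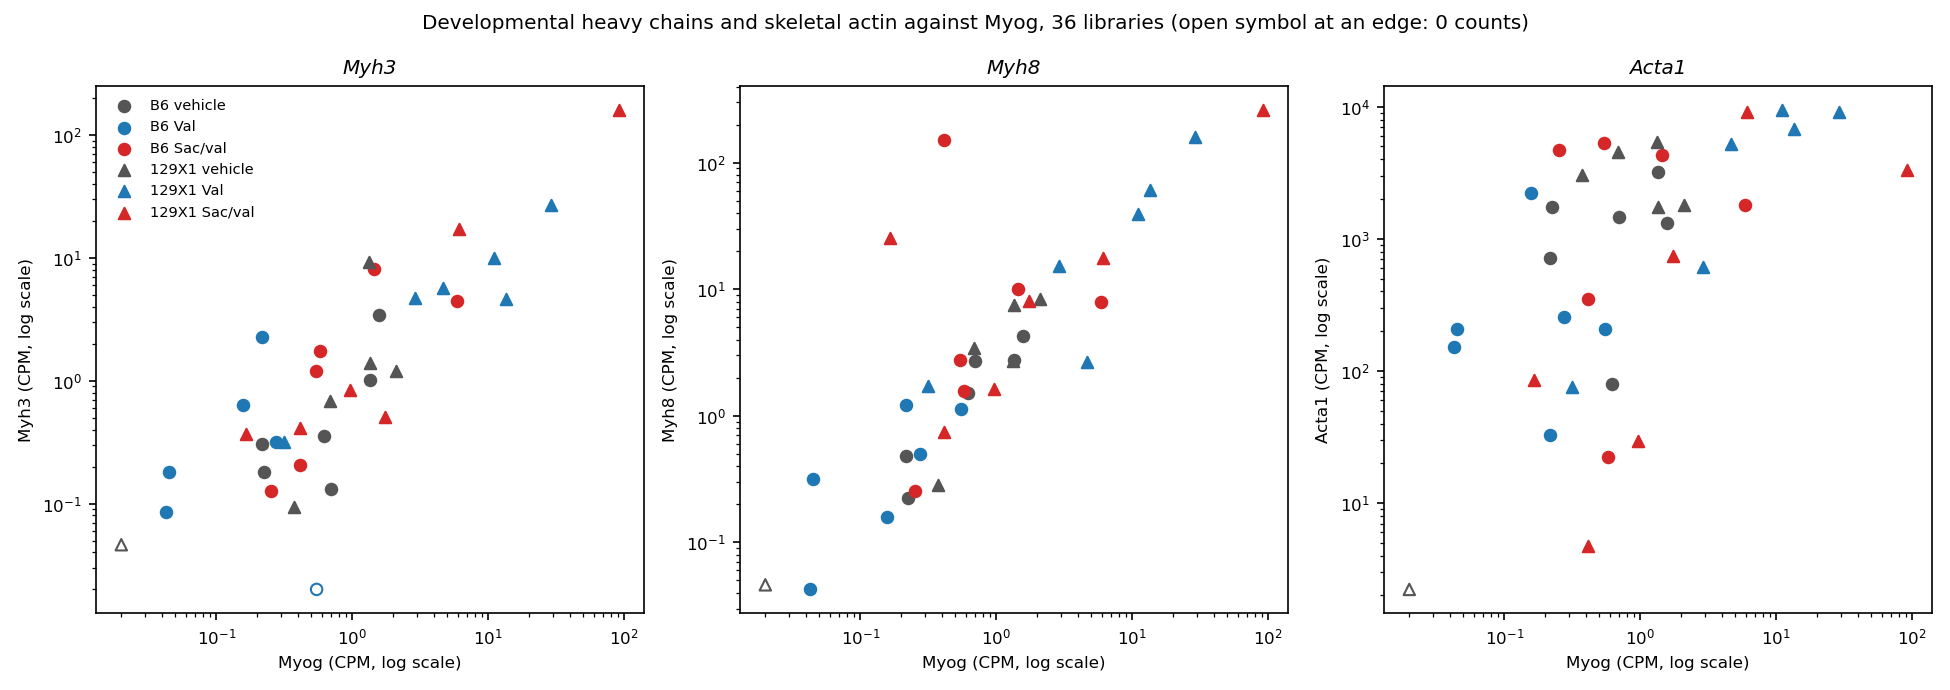
Each panel plots Myh3, Myh8 or Acta1 (CPM, log axis) against Myog (CPM, log axis) in 36 libraries; circles are B6, triangles 129X1, grey vehicle, blue Val, red Sac/val, and open symbols at the foot or left edge had 0 counts. The triangle at 91.9 CPM of Myog has the highest Myh3 (160 CPM) and Myh8 (261 CPM), while the red circle at 151 CPM of Myh8 has 0.411 CPM of Myog.

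Between the 10 genes themselves, Myh1 and Myh2 had a rho of 0.91, Myh1 and Myh4 0.81, Myh3 and Myh8 0.71, Actc1 and Myh8 0.81, and Myh7 and Tnnt1 0.72. Myh4 and Myh8, which lie next to each other in the cluster, had a rho of 0.23, and Myh4 and Myl4 0.11. All of these share the libraries and their content of muscle.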

How the data were processed

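RNA from the ligated left carotid artery of 36 mice (12 groups of 3) was sequenced from stranded mRNA libraries, per the labels. Trimmomatic 0.36 was run by the authors ahead of mapping to GRCm38 with STAR 2.5.2b and counting with featureCounts (Subread 1.5.0p3), per the submitters' processing notes; the annotation release, read length and strand setting are not given in the sources used here. The deposited values are raw counts per gene symbol, and no entry lacked a name. The 10 genes and all gene lists were chosen with earlier results of these data known, so no list is independent support.

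Genes were filtered with filterByExpr, which left 18628, and scaled by TMM (factors 0.82 to 1.13). One edgeR 4.0.16 quasi-likelihood fit of 12 group means (R 4.3.3, 24 residual degrees of freedom, biological coefficient of variation 0.463, prior degrees of freedom 2.36) gave all log2 differences, with p-values adjusted by Benjamini-Hochberg within a comparison and a threshold of 0.05. SE values derive from the F statistic. Alternatives were DESeq2 1.42.0 size factors and Wald test, a fit without the filter, a fit of only the groups in question, the mean log2 level of 12 mature muscle genes as a covariate, limma 3.58.1 voom with sample quality weights, omitting the libraries with 10 CPM of Rag1 or more, and omitting each library in turn. Voom without weights and the fit without the 2 libraries highest in Myog were chosen after seeing the data. Named outside the 10 were the list genes with the smallest p in the strain comparison, the 3 genes most alike in rank, and markers that bear on a library. Genes such as Myl3, Chrng and Nppa were chosen after their values were seen. The edgeR fit was tested on simulated counts before use. Permutation tests were two-sided. Promoter sequences were taken from RefSeq (GRCm38.p6), and gene positions from GENCODE M21. Replicates are separate mice per the labels, and wall, muscle and other tissue in a library were not separated.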

Additional observations from a re-analysis of the deposited data

Results flagged for a closer look

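A single mouse stood far from the other 5 vehicle mice of its strain in 8 of 20 sets tested (10 genes in 2 strains), judged by the gap to the nearest value in CPM relative to the whole range. For values without skew chance flags about 1 in 20 sets, a rate that need not hold for CPM values as skewed as these, and the 8 sets come from 3 libraries. In 129X1, vehicle T replicate 1 was the highest for 4 genes: Myh2 at 1040 CPM, Myh7 at 200 CPM, Tnnt1 at 67.8 CPM and Myh3 at 9.23 CPM. In B6, vehicle T replicate 3 was the highest for 3 of the same 4, Myh2 at 129 CPM, Myh7 at 1.94 CPM and Tnnt1 at 6.15 CPM, and vehicle P replicate 3 for Myh3 at 3.43 CPM. Myh2, Myh7 and Tnnt1 are genes of oxidative and slow fibres, and they were high together in 1 mouse of each strain. On log2 CPM, a scale added after seeing the data, 8 sets were also past the limit, but only Myh7 in both strains and Tnnt1 in 129X1 were in common. The other 5 were Myh1 and Myh4 in both strains and Acta1 in 129X1, each with 1 low mouse.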

How the results depend on the processing

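Of the 10 genes, 7 passed in the strain comparison over all treatments, all higher in 129X1, against 3 with the muscle score as covariate (2 of the 7, Actc1 and Tnnt1, and Myh4, now lower), 0 with limma voom with sample quality weights, 0 with voom alone and 2 without the 2 libraries highest in Myog. Leaving out single libraries gave 3 to 7 (3 without 129X1 Sac/val P replicate 1, 4 without 129X1 Sac/val T replicate 3). The count of regeneration genes, 15, became 7, 3, 1 and 7 under the same 4 fits and 8 to 17 with single libraries left out (8 without 129X1 Sac/val P replicate 1). Of all 18628 genes 6296 passed in the main fit, 10108 with weighted voom and 5907 with voom alone, in both directions. Counts over all genes are not given here for the covariate fit, the fit without the 2 libraries or the omissions. Actc1, Myh8 and Tnnt1 passed in all 36 omissions, Myh1 and Myh3 in 34, and Myh2 and Myl4 in 13. The Myh4 difference of 0.40 turned to -1.19 with the covariate, -0.73 and -0.17 with voom with and without weights, and -0.36 without the 2 libraries, and ran from -0.43 to 0.93 over the omissions (-0.36 without 129X1 Sac/val P replicate 1, -0.08 without 129X1 Val T replicate 3, -0.43 without 129X1 Sac/val T replicate 3). Acta1 turned from 1.44 to -0.31 with the covariate and -0.03 with weighted voom. The cause was not tested. Counts of 0 in the vehicle, drug and interaction comparisons were 0 under each alternative run. The fit without libraries at or above 10 CPM of Rag1 could not be made for the strain comparison over all treatments, Val against vehicle, Sac/val against Val, Val T in 129X1 and both Val interactions, since a group lost every library. No paired analysis was possible because replicate numbers follow the order of deposit and pair no mice.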

Other observations

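Other sarcomeric heavy chains were also measured. Myh6, the cardiac chain, was at 35.6 CPM in 129X1 vehicle T replicate 1 and 13 CPM in 129X1 Val P replicate 3, against a median of 0.0421 CPM. Myh13, the chain of eye and larynx muscle, was at 3.14 CPM in 129X1 vehicle T replicate 1 and its median was 0.267 CPM over the 129X1 libraries and 0.0887 CPM over those of B6 (1.70 on the log2 scale over all treatments, SE 0.56, edgeR adjusted p = 0.02). Myh15 reached 1.59 CPM in the same library and 0.951 CPM in 129X1 Val P replicate 3, both libraries high in Myh7. Myh7b, a heavy chain related to Myh7, had medians of 1.77 CPM in 129X1 and 0.303 CPM in B6 over all treatments. Under vehicle alone it passed (3.13, SE 0.55, edgeR adjusted p = 0.000232), which none of the 10 genes did. It was at 2.03 CPM in 129X1 vehicle P replicate 2, which had 3.14 CPM of summed heavy chain, so its level did not simply reflect muscle content.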
